A study of Homo sapiens with 96 samples.

Results

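Whole-cell nascent RNA was set against whole-cell input RNA, gene by gene, to rank RNAs by how much of their level was newly made. The material was the established human cell line hTERT-RPE1, which derives from retinal pigment epithelium and grows without limit because it carries telomerase. Of the 96 samples of the series, 24 were used: 12 nascent and 12 input libraries, 2 of each kind in each of 6 groups. The groups were asynchronous cells and cells in 5 windows labelled T0-2, T2-4, T4-6, T6-8 and T8-10, synchronised, per the labels' protocols, with 400 uM mimosine for 22 h. Mimosine binds iron and keeps cells from starting to copy their DNA. The sources used here do not give the unit of the window labels, the way nascent RNA was labelled or captured, or whether a group's 2 libraries are separate cultures. The p-values therefore measure only the spread between these libraries. In bulk samples, fewer cells with an RNA and less RNA per cell cannot be told apart, and the asynchronous cells hold all phases of the cycle.

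Each nascent library was paired with the input library of the same group and replicate number, which gave 12 pairs. The values are RPKM, read counts scaled for gene length and for depth, and the ratio is log2((nascent RPKM + 0.25)/(input RPKM + 0.25)). Of 19304 genes found in both tables, 9138 had at least 0.5 RPKM in at least 2 columns of each table, and these are the members. A further 427 genes passed in the nascent table only and 549 in the input table only, and they have no ratio here. The members include 8286 protein-coding genes, 293 lincRNAs, 225 antisense RNAs, 27 RNAs of the class misc_RNA and 12 snRNAs. The authors scaled the 2 tables separately, so the median member of each pair was set to 0. A ratio of 1 therefore means that nascent over input was 2-fold that of the median gene, not that nascent RNA exceeded input RNA.

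The level of an RNA is set by how fast it is made and how fast it is lost. An RNA that turns over fast holds a larger share of newly made molecules than one that lasts. Messages of transcription factors and signalling feedback genes are textbook examples of short-lived RNAs. Messages of ribosomal proteins and metabolic enzymes, and the structured RNAs of the signal recognition particle and the spliceosome, are textbook examples of long-lived ones. The ratio is an index of this kind and not a half-life, because labelling, capture and processing also enter it.

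Depth recovered from the RPKM steps was 6.39 to 23.6 M (mega) reads per nascent library and 7.84 to 23.4 M reads per input library. The 2 asynchronous nascent libraries were the shallowest of the 24. Cell identity was checked on fixed markers: none of 16 markers of other cell types was a member, and those found summed to 0.180 to 1.29 RPKM per nascent library and 0.0833 to 1.36 RPKM per input library. Of 18 pigment epithelium genes 5 were members, namely KRT8, KRT18, CDH2, OTX2 and MITF. The visual cycle enzyme RPE65 was at 0 to 0.169 RPKM in the input libraries and the melanin enzyme TYR at 0.00797 to 0.263 RPKM, so the pigment and visual cycle markers were near 0 in this line.

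The libraries fell apart by replicate number, so the values of both numbers are given beside most genes and lists below. Across the 9138 genes, log2 input levels of the windows correlated at 0.95 to 0.98 among the libraries numbered 1, at 0.93 to 0.98 among those numbered 2, and at only 0.65 to 0.83 between the numbers. Nascent levels correlated at 0.87 to 0.94 between the numbers. The ratio followed: its correlation had a median of 0.72 among window pairs numbered 1, 0.77 among those numbered 2, and -0.09 between the numbers. Between the 2 asynchronous numbers, input agreed better than nascent RNA, at 0.98 for input levels, 0.89 for nascent levels and 0.08 for the ratio. The asynchronous pair numbered 1 resembled the windows numbered 2 (median correlation 0.65), and the asynchronous pair numbered 2 resembled the windows numbered 1 (0.37). These correlations are across genes, which are not independent. Of all members, 46.3% had mean ratios on opposite sides of the median gene in the 2 numbers. Pairs of the same number are thus not independent of each other, and the p-values of the mean ratios below are too small. In the comparisons of windows with asynchronous cells and among windows, the gap between the numbers lies within each group. There it widens the spread that the tests use.

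**Figure D1:**
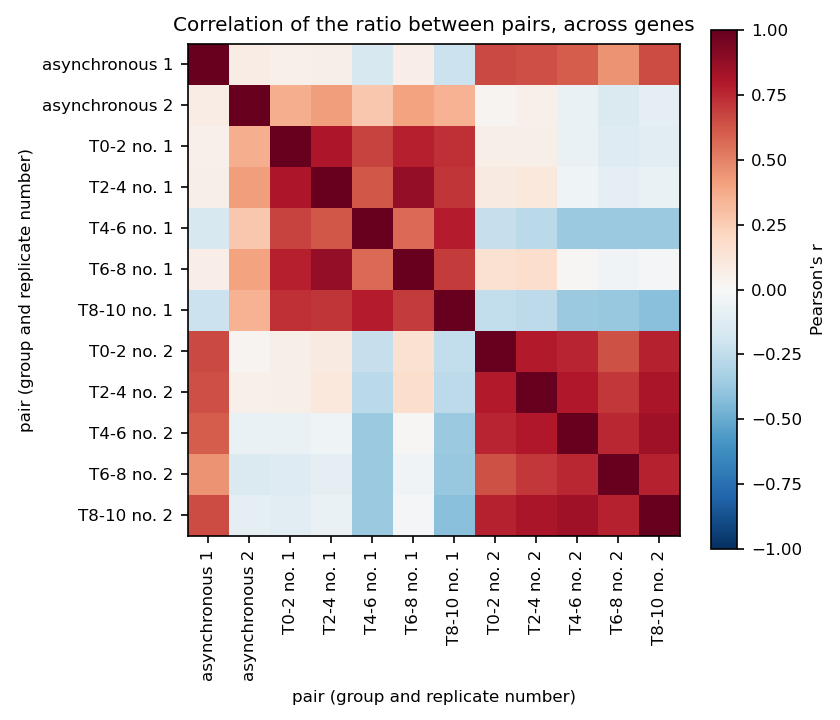
Pearson's r of the centred log2 nascent over input ratio between each pair of the 12 nascent and input pairs, over 9138 genes; both axes list the pairs by group and replicate number, and colour gives r. The window pairs form 2 blocks by number, with a median r of 0.72 in the block numbered 1, 0.77 in the block numbered 2 and -0.09 between them.

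Over all 12 pairs, 7 genes were high in nascent RNA and 70 were low, by limma with Benjamini-Hochberg adjusted p under 0.05 and a mean ratio at least 1 from the median gene. These are 0.0766% and 0.766% of the genes tested. Without the size rule, 380 genes (4.16%) passed above the median gene and 719 (7.87%) below it. Of the 70 low genes 22 were snRNAs or misc_RNAs, from only 39 such members, and 44 were protein-coding. Of these 22, 15 carry RN7SL names and are described below. The 7 high genes were 4 protein-coding genes and 3 pseudogenes. These counts sat close to the threshold: the lowest adjusted p was 0.0312, the numbers crossed within groups (nascent 1 with input 2) gave 0 and 0 genes, and leaving out the pair T2-4, T4-6 or T8-10 numbered 1 gave 8 to 24 high and 108 to 180 low genes. Leaving out any of the other 9 pairs gave 0 or 1 high and 0 to 8 low genes.

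The genes that sat on 1 side of the median gene in every pair do not depend on that threshold: 221 members (2.42%) were above it in 12 of 12 pairs and 437 (4.78%) below it. The structured RNAs and coding genes that were low are described first, then the genes that were high.

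The clearest low group was made of small structured RNAs, which were more abundant in input than in nascent RNA in both numbers. RN7SL2, the RNA of the signal recognition particle that sends ribosomes to the endoplasmic reticulum, had 10831, 15264 and 28220 RPKM (lowest, median and highest of 12 libraries) in nascent RNA, against 27619, 40211 and 61054 RPKM in input RNA. The 2 kinds of library overlapped only at the highest nascent library, the asynchronous one numbered 1. Its mean ratio was -1.36 ± 0.15 (SE, n = 12 pairs; adjusted p = 0.0312 by limma), below the median gene in 12 of 12 pairs, with means of -1.53 in number 1 and -1.18 in number 2. With quantile normalization, which forces the top ranks of all libraries to 1 value, it was -0.12. Of the 21 members named RN7SL, a group formed after the values were seen, 15 were low. The median ratio of the 21 was -1.48, against 0.04 over all members. Most of these members are pseudogene copies of the 7SL gene. Whether their reads can be told from those of RN7SL2 was not tested, so they are no separate evidence.

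Splicing RNAs lay lower still, on fewer reads. RNU5E-1, a copy of the U5 RNA of the spliceosome, had 1.47, 11.8 and 38.7 RPKM (lowest, median, highest) in nascent RNA, against 9.94, 65.7 and 314 RPKM in input RNA, from 2 to 78 nascent and 11 to 732 input reads. Its mean ratio was -2.65 ± 0.33 (SE, n = 12; adjusted p = 0.0312 by limma), with -2.87 in number 1 and -2.42 in number 2. RNVU1-7, a variant of the U1 RNA, had a mean ratio of -2.83 ± 0.54, and VTRNA1-3, a vault RNA, one of -2.90 ± 0.36 on at most 35 nascent reads, with -3.23 and -3.10 in number 1 and -2.43 and -2.71 in number 2, both below the median gene in 12 of 12 pairs. Each of these 2 was at 0 in at least 1 nascent library, so the size rests on the pseudocount. The U4 RNAs RNU4-1 and RNU4-2 averaged -2.16 and -1.86 and missed the threshold (adjusted p = 0.079 and 0.199). RNU4-2 was at 28903 RPKM in the asynchronous input library numbered 2 against 66.8 RPKM in the one numbered 1, and its input was higher in the windows numbered 1 than in those numbered 2. These genes are 89 to 164 bases long and have near-identical copies, so their counts are uncertain.

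The coding genes at the low end were mostly short: the 44 low coding genes had a median length of 5.16 kb, against 30.15 kb over all protein-coding members. PAXX, a factor of DNA end joining, had 6.41, 8.57 and 12.4 RPKM (lowest, median, highest) in nascent RNA, against 11.6, 23.8 and 40.3 RPKM in input RNA. The ranges overlapped at 11.6 to 12.4 RPKM, but within each number every nascent value was below every input value. Its mean ratio was -1.27 ± 0.15 (SE, n = 12; adjusted p = 0.0312 by limma), with -1.09 in number 1 and -1.45 in number 2, the narrowest gap between the numbers among the low coding genes on 1 side in all pairs. ARHGDIA averaged -1.20 ± 0.25, with -0.69 in number 1 and -1.72 in number 2. Its input level was 12.5 to 119.9 RPKM in libraries numbered 1, where the asynchronous one was highest, and 47.4 to 107 RPKM in those numbered 2.

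The other named coding genes at this end showed the same spread between the numbers. TELO2, which keeps kinases of the DNA damage response stable, averaged -1.41, with -0.66 in number 1 and -2.16 in number 2. The formin INF2, the ARF regulator ACAP3 and the centrosome gene LRRC45 averaged -1.22, -1.21 and -1.16, and each was below the median gene in 12 of 12 pairs. Their means in number 1 were -0.60, -0.58 and -0.69, and in number 2 -1.84, -1.83 and -1.64. For TELO2 the nascent level was 1.13 to 3.27 RPKM in all libraries, while input was 1.32 to 8.5 RPKM in number 1 and 4.79 to 18.1 RPKM in number 2. The gap between the numbers thus came mainly from the input libraries.

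The high end was shorter. PPP1R3C, which brings protein phosphatase 1 to glycogen, had 4.32, 7.24 and 12 RPKM (lowest, median, highest) in nascent RNA, against 0.952, 2.13 and 9.05 RPKM in input RNA. Its mean ratio was 1.27 ± 0.26 (SE, n = 12; adjusted p = 0.0312 by limma), above the median gene in 12 of 12 pairs, with 0.64 in number 1 and 1.89 in number 2. The lowest ratio, 0.02, was in a pair numbered 1, where input was 1.31 to 9.05 RPKM, against 0.952 to 2.43 RPKM in number 2. ARRDC3, an alpha-arrestin that binds membrane receptors, had 2.43, 6.17 and 12.4 RPKM in nascent RNA, against 0.798, 1.43 and 8.71 RPKM in input RNA, and a mean ratio of 1.19 ± 0.26 (adjusted p = 0.0319), with 0.70 in number 1 and 1.68 in number 2. TIPARP, a target of the dioxin receptor, averaged 1.05 (0.49 in number 1 and 1.6 in number 2) and was above the median gene in 11 of 12 pairs. KRT36, a hair keratin, averaged 1.95 (1.35 and 2.54) at mean levels of 3.63 RPKM in nascent and 0.153 RPKM in input RNA. The other 3 high genes were the pseudogenes RNA5SP286 (3.69), AC113191.1 (1.57) and DUX4L19 (1.29). TIPARP, these 4 and the genes of the next paragraph were chosen after their values were seen.

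**Figure D2:**
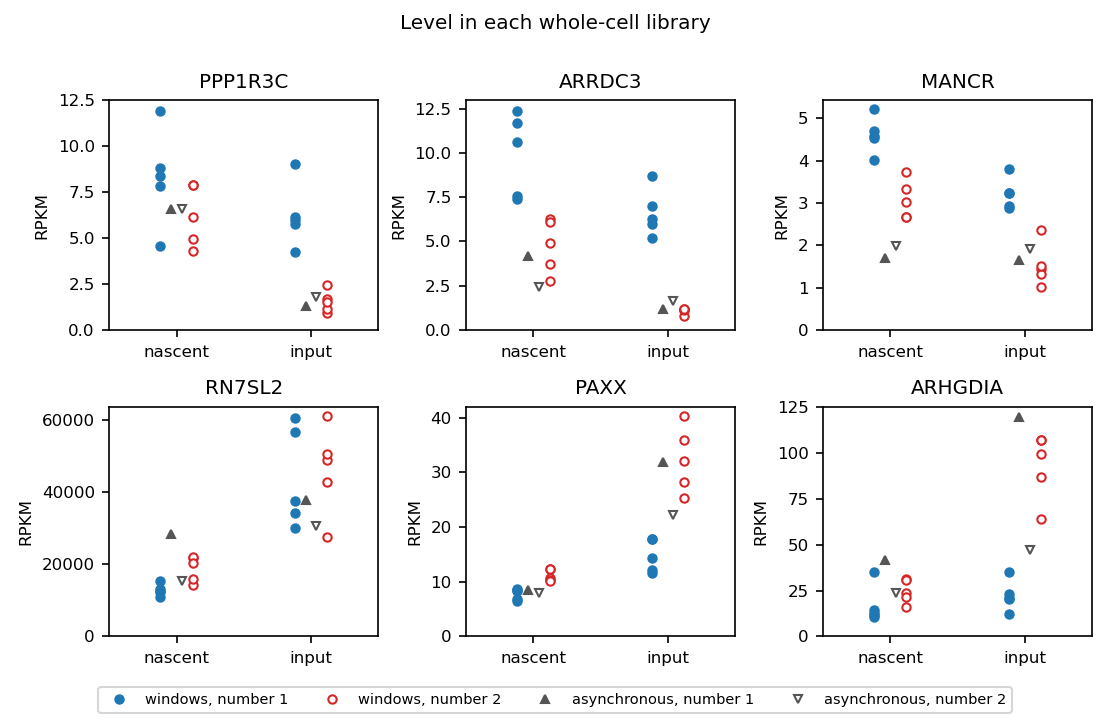
RPKM of 6 genes in each of 12 nascent (left) and 12 input (right) whole-cell libraries, with filled circles for windows numbered 1, open circles for windows numbered 2 and triangles for asynchronous cells; each axis starts at 0. Input of PPP1R3C and ARRDC3 is low in number 2 and in asynchronous cells, while PAXX and RN7SL2 are higher in input in both numbers.

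A second rank of genes was picked for passing above the median gene by less than 1 and lying above it in every pair. That they lay above it in both numbers follows from this choice. PURPL, a lncRNA induced by p53, had a mean ratio of 0.83 ± 0.13, with 0.56 in number 1 and 1.09 in number 2. CCNT1, the cyclin of the elongation factor P-TEFb, averaged 0.70 ± 0.12 (0.54 and 0.85 in numbers 1 and 2). UGCG, which makes glucosylceramide, averaged 0.62 ± 0.13 (0.68 and 0.56), and DUSP10, a phosphatase of MAP kinases, 0.56 ± 0.08 (0.48 and 0.63). All 4 had adjusted p of 0.0312 or 0.0313 by limma and were above the median gene in 12 of 12 pairs. The same holds, with adjusted p of 0.0312 to 0.047, for the zinc finger genes ZBTB6 (0.96) and ZNF436 (0.79), the ubiquitin ligase adaptor FEM1C (0.80), the alpha-arrestin ARRDC4 (0.65), the corepressors NRIP1 (0.55) and RYBP (0.55), and LYPLAL1 (0.70), where each value is the mean ratio. In each of these 7 genes the mean was smaller in number 1 (0.37 for FEM1C to 0.59 for LYPLAL1) than in number 2 (0.67 for NRIP1 to 1.44 for ZBTB6).

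**Figure D3:**
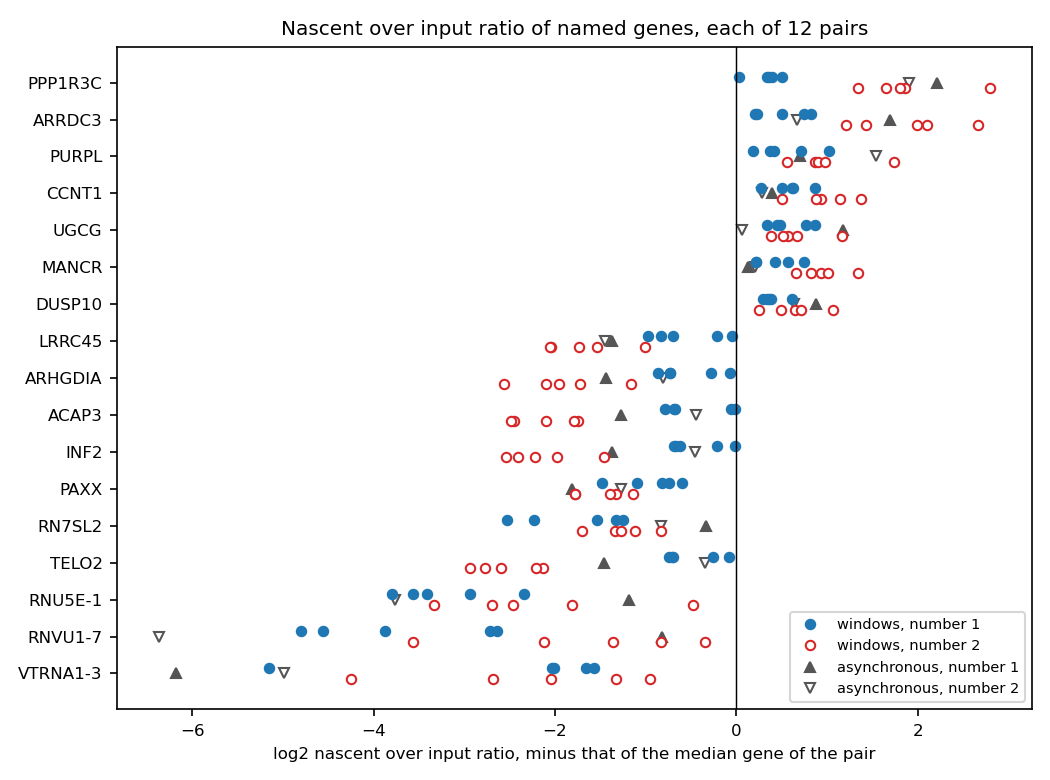
Centred log2 nascent over input ratio (x axis) of 17 genes (y axis) in each of 12 pairs, by number and by windows or asynchronous cells; the vertical line is the median gene. The 7 upper genes lie right of the line and the 10 lower genes left of it in all 12 pairs, while open circles (windows numbered 2) lie farther out than filled ones for most coding genes.

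Sequence around the start sites is shown for 5 genes from the 2 ends, since base composition differed between the genes that passed on either side. Each line runs from 60 bases before to 40 bases after the RefSeq start (GRCh38.p14), 5′ to 3′ on the gene's strand, with CG dinucleotides in capitals. PAXX and RPS15 were low and PPP1R3C was high in nascent RNA. UGCG and MANCR passed above the median gene but fell short of the size rule for high genes.
PAXX (chr9:136992362-136992461, plus strand): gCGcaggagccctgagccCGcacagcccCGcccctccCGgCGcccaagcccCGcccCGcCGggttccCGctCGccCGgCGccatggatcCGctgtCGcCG
RPS15 (chr19:1438336-1438435, plus strand): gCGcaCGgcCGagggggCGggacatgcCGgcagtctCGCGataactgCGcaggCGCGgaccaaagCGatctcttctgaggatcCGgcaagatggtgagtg
PPP1R3C (chr10:91633032-91633131, minus strand): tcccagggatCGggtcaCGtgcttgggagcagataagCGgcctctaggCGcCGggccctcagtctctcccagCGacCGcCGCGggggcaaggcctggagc
UGCG (chr9:111896754-111896853, plus strand): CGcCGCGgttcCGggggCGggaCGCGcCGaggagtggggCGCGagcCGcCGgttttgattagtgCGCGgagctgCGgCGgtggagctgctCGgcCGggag
MANCR (chr10:4678031-4678130, minus strand): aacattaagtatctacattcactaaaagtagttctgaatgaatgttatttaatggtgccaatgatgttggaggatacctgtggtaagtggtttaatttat

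The PAXX window is 82% G or C with 15 CG dinucleotides, as many as 10.0% of the 35116 RefSeq windows of this length have. The MANCR window is 31% G or C and holds no CG, while 85.5% of those windows hold at least 1. UGCG, which like MANCR passed above the median gene, has 77% and 18 CG dinucleotides, so single genes that passed above did not share a composition. Over 300 bases around the start, protein-coding genes that passed below the median gene had a median G+C of 68.7%, those that passed above it 64%, and all protein-coding members 66%; a window was found for 568 of 686, 280 of 350 and 6997 of 8286 genes. The relation was not the same in the 2 numbers. Across the 6997 genes, Spearman's correlation of G+C with the ratio was -0.21 to -0.16 in the window pairs numbered 2 and -0.04 to 0.11 in those numbered 1.

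Gene length separated the 2 ends in both numbers. The files' gene lengths, known for 9025 members, follow the whole gene span, introns included, and cancel within a ratio. Genes that passed below the median gene had a median length of 11.3 kb, those that passed above it 44.1 kb, and all members 27.3 kb. In the shortest of 5 equal groups of members (0.07 to 8.22 kb) 264 of 1805 passed below and 26 above, while in the longest (75.3 to 1217 kb) 18 passed below and 109 above. The median ratio of the shortest group was -0.22 in number 1 and -0.15 in number 2, and that of the longest 0.13 and 0.07. Spearman's correlation between length and ratio was 0.14 to 0.42 in the window pairs numbered 1 and -0.02 to 0.16 in those numbered 2, so the trend was weak or absent in some pairs numbered 2. The part that intron reads, library size selection or fragment length had in this trend was not tested.

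**Figure D4:**
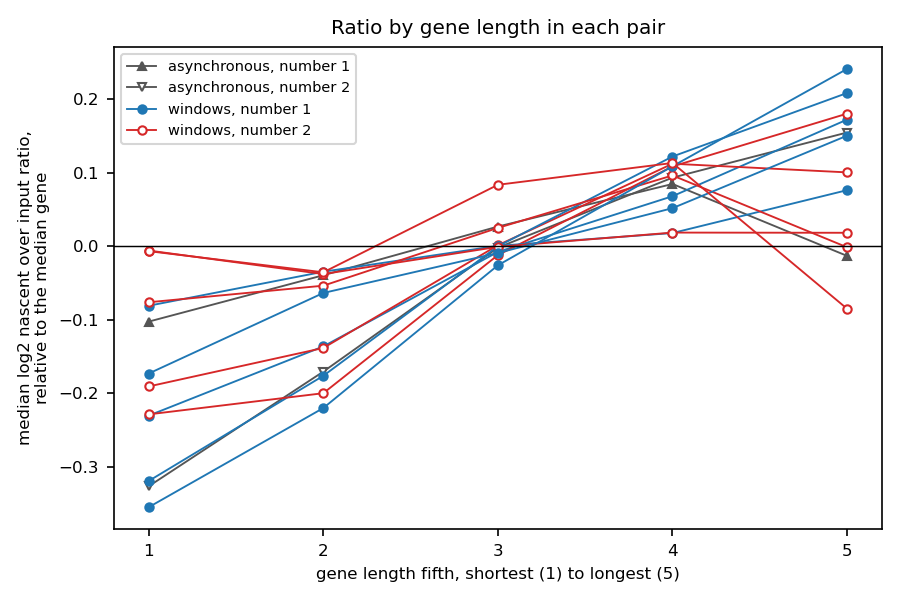
Median centred log2 nascent over input ratio (y axis) of the members in 5 equal groups by gene length, shortest to longest (x axis), with 1 line per pair. In all 12 pairs the median of the shortest group lies below 0, and in 9 pairs that of the longest group lies above 0.

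Gene lists by function showed how far the numbers differed. The lists hold the genes a reader would look for in a comparison of stable and unstable RNAs. Cytosolic ribosomal protein genes (69 members) had a median ratio of -0.63 in windows numbered 1 and 0.40 in windows numbered 2. Genes of the nuclear-encoded respiratory chain (71 members) had -0.47 and 0.37, mitochondrial ribosomal protein genes (51 members) -0.34 and 0.37, and chaperones of the endoplasmic reticulum (18 members) -0.44 and 0.82. Replication-dependent histone genes (50 members), whose messages are made in S phase and lack a poly(A) tail, had -0.91 and 0.77, and in the asynchronous pairs 1.21 in number 1 and -0.95 in number 2. KRAB and other zinc finger genes (232 members) had the opposite order, 0.33 in windows numbered 1 and -0.21 in windows numbered 2. The median over all members was within 0.05 of 0 in both sets of windows.

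**Figure D5:**
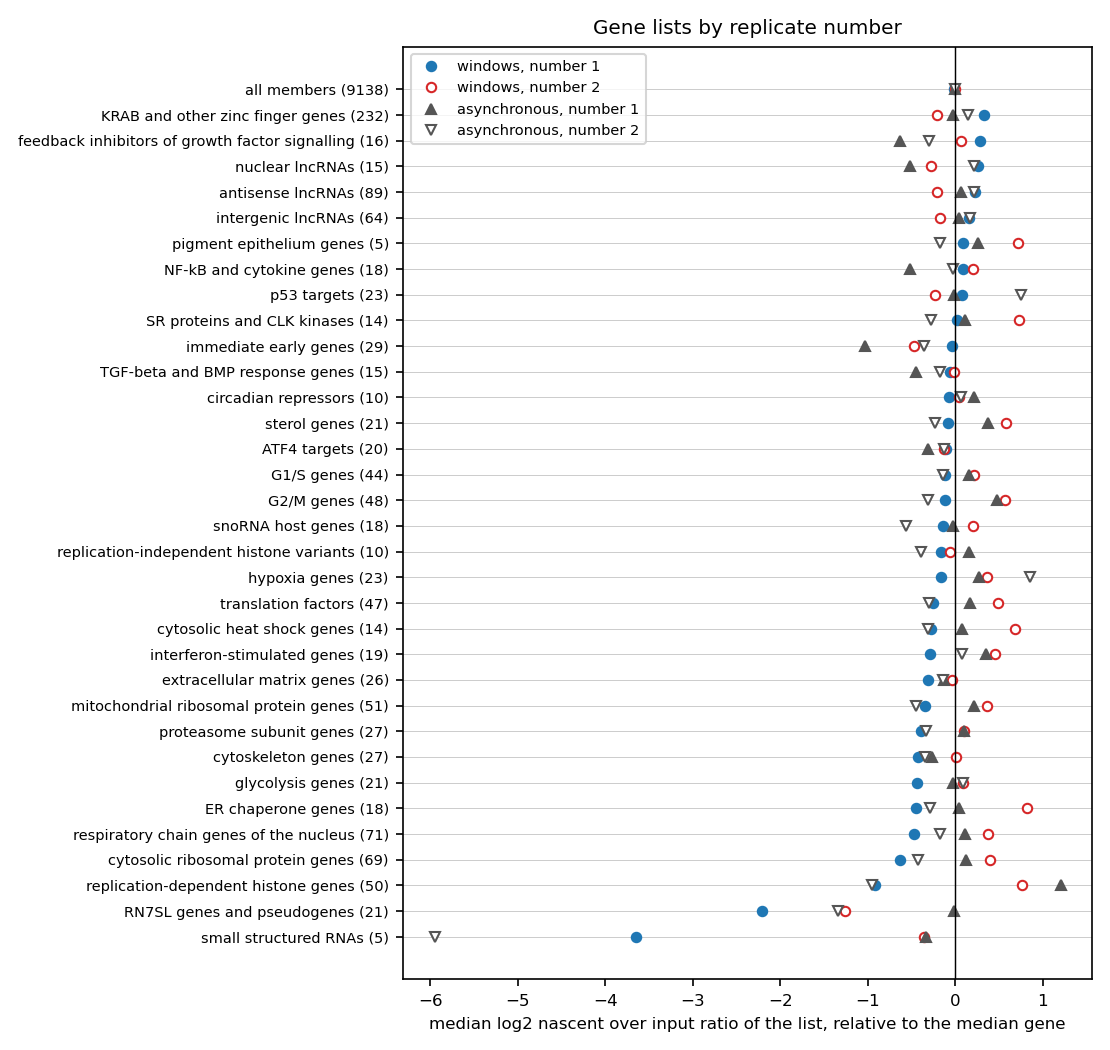
Median centred log2 nascent over input ratio (x axis) of each gene list (y axis, members in brackets), in windows numbered 1, windows numbered 2 and each asynchronous pair. The small structured RNAs and the RN7SL genes lie left of the median gene in all 4 sets, the latter at only -0.02 in asynchronous number 1. So do the immediate early, TGF-beta and BMP, extracellular matrix and ATF4 lists. The lists of ribosomal protein, respiratory chain and chaperone genes lie on opposite sides of the median gene in the 2 sets of windows.

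Single members of these lists passed the test where the list as a whole did not lie on 1 side. Of the 69 ribosomal protein genes 5 (7.25%) passed below and 1 above the median gene, close to the share of all members that passed below, 7.87%. RPS15, of the small ribosomal subunit, averaged -1.12 ± 0.21 (-0.74 in number 1 and -1.5 in number 2), and RPLP1, of the large subunit, averaged -0.73 (-0.61 and -0.84), both with an adjusted p of 0.0312 by limma. RPL21 was the 1 above, at 0.37. Among 50 histone genes 3 passed below, and this share of 6% is under that of all members. HIST1H4B averaged -1.12 ± 0.19 (-1.27 in number 1 and -0.98 in number 2) and HIST1H1B, a linker histone, -0.87 ± 0.17 (-0.98 and -0.76). HIST1H1B had 95.3 to 817 RPKM in nascent RNA, against 133 to 1665 RPKM in input RNA, and its level in both kinds was lower in T0-2 than in T4-6 in either number. Histone genes of the same class, such as the H4 genes, can be similar copies of each other, so single values of such genes are uncertain.

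Structural genes passed below more often than the background of 7.87%. Of 27 cytoskeleton genes 7 (25.9%) passed below and 0 above: the actin crosslinker FLNA averaged -0.62 ± 0.13 (-0.55 and -0.69 in numbers 1 and 2), the tropomyosin TPM2 -0.73 ± 0.15 (-0.70 and -0.76) and the actin-binding TAGLN -0.65 ± 0.13 (-0.72 and -0.57), each below the median gene in 12 of 12 pairs. FLNA had 71.9, 141 and 176 RPKM (lowest, median, highest) in nascent RNA, against 81.7, 201 and 313 RPKM in input RNA. Of 26 extracellular matrix genes 6 (23.1%) passed below and 0 above, among them the basement membrane collagen COL4A2 at -0.78 ± 0.19 (-0.46 and -1.09). The collagen COL7A1 was lowest of the list at -1.5, but its values of -0.45 in number 1 and -2.54 in number 2 left an adjusted p of 0.0591. Both lists' medians in windows numbered 2 were near 0, at 0.01 for the cytoskeleton and -0.04 for the matrix.

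Metabolic and replication genes passed below in shares near the 7.87% of all members, so the counts show nothing particular to these lists. They were 7 of 71 respiratory chain genes (9.86%), 6 of 51 mitochondrial ribosomal protein genes (11.8%), 5 of 44 G1/S genes (11.4%), 2 of 21 sterol genes (9.52%) and 1 of 48 G2/M genes (2.08%). The single genes differed in how far the numbers lay apart. NDUFB7 of complex I averaged -0.81 (-0.55 in number 1 and -1.08 in number 2), ATP5F1D of ATP synthase -1.34 (-0.69 and -1.99), and MRPL41 of the mitochondrial ribosome -1.05 (-0.65 and -1.45). The licensing factor CDT1 averaged -0.72 (-0.42 and -1.02), DNA ligase LIG1 -0.65 (-0.39 and -0.91) and the polymerase subunit POLD1 -0.63 (-0.37 and -0.89). The fatty acid synthase FASN averaged -1.22 (-0.49 and -1.95) and MVD of the mevalonate pathway -0.77 (-0.28 and -1.25).

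Regulatory genes passed above more often than the background of 4.16% in some lists and not in others. Of 232 zinc finger genes 26 (11.2%) passed above and 3 below, with ZNF776 at 0.78 above (0.35 in number 1 and 1.21 in number 2) and ZNF598 at -1.11 below (-0.49 and -1.74). Of 16 feedback inhibitors of growth factor signalling 3 (18.8%) passed above and 0 below: DUSP10, and SOCS5 (0.47) and SOCS6 (0.49), which dampen cytokine and growth factor receptors. Of 14 SR proteins and CLK kinases, which control splicing, 2 passed above: CLK1 at 0.63 (0.25 and 1.01) and CLK4 at 0.48 (0.50 and 0.47). Of 18 NF-kB and cytokine genes 3 passed above, with the apoptosis inhibitor BIRC3 at 0.59 (0.26 and 0.93), and 1 below, the NF-kB subunit NFKB2 at -1.0 (-0.67 and -1.34). Of 20 ATF4 targets 1 (5%) passed above, the amino acid transporter SLC7A11 at 0.53, and 2 (10%) below, PHGDH at -0.30 and SLC3A2 at -0.51. Of 21 glycolysis genes 1 (4.76%) passed above, the glucose transporter SLC2A3 at 0.48, and 2 (9.52%) below, PFKL at -0.50 and GPI at -0.31. The shares of these 2 lists are near those of all members. None of 29 immediate early genes passed in either direction. Their median ratio was -0.24, below the median gene in number 1 (-0.15) and in number 2 (-0.40). Of them, 20.7% had mean ratios on opposite sides in the 2 numbers, against 46.3% of all members.

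FOS, among the highest members of that list, shows how far an immediate early gene could spread between pairs. In nascent RNA it was at 124 RPKM in the asynchronous library numbered 1 and 3.68 RPKM in the one numbered 2, and in the window libraries at 0.948 to 6.22 RPKM in number 1 and 3.79 to 193 RPKM in number 2. Input RNA held 1.2 to 7.56 RPKM in all 12 libraries. Its mean ratio of 1.75 ± 0.71 did not pass (adjusted p = 0.125 by limma), with 0.68 in number 1 and 2.82 in number 2. High nascent FOS was thus seen in the asynchronous library numbered 1 and in 4 of 5 windows numbered 2, and in no window numbered 1. EGR1, another immediate early gene, averaged -0.83 and did not pass either (adjusted p = 0.107).

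Long non-coding RNAs as a class did not lie to 1 side of the median gene. The median ratio was 0.02 over 293 lincRNAs and 0.04 over 225 antisense RNAs, against 0.04 over all members. In windows numbered 1 the 2 classes had medians of 0.18 and 0.24, and in windows numbered 2 of -0.22 and -0.23. No named lncRNA was high by at least 1 in 12 of 12 pairs. MALAT1 and NEAT1, 2 abundant lncRNAs kept in the nucleus, averaged -0.29 and -0.84 and did not pass (adjusted p = 0.303 and 0.159).

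MANCR, called LINC00704 in the labels and 1 of 3 lncRNAs knocked down elsewhere in the series, was above the median gene in 12 of 12 pairs. It had 1.71, 3.53 and 5.21 RPKM (lowest, median, highest) in nascent RNA, against 1.02, 2.14 and 3.80 RPKM in input RNA. Its mean ratio was 0.60 ± 0.12 (SE, n = 12; adjusted p = 0.0312 by limma), with 0.38 in number 1 and 0.83 in number 2, and 0.12 and 0.21 in the asynchronous pairs. LUCAT1 averaged 0.28 ± 0.11 and did not pass (adjusted p = 0.119), at mean levels of 0.639 RPKM in nascent and 0.467 RPKM in input RNA. MIAT was below the level filter and has no ratio here.

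The ratio was then compared between the windows and asynchronous cells. By limma, 0 of 9138 genes (0%) were higher in the windows and 0 (0%) lower, with 329 genes at an unadjusted p under 0.05 and a lowest adjusted p of 0.354. When windows were set against the asynchronous pair of the same number, the differences of the 2 numbers correlated at -0.58 across genes, and of the genes that differed by at least 1 in both numbers, 767 did so with opposite signs and 59 with the same sign. The labels do not say what a shared number means, and the ratio of each asynchronous pair resembled the windows of the other number, so these differences and those below depend on which asynchronous pair is set against which windows. Among the 59 were NOG, a secreted inhibitor of BMPs (1.87 in number 1 and 2.37 in number 2), the signalling inhibitor SPRY2 (2.4 and 1.33), MIR222HG (2.38 and 1.57) and ADAMTS15 (-1.60 and -1.17); these 4 were chosen after their values were seen. MIR222HG had 4.79 to 14.7 RPKM in nascent RNA of the windows, against 3.02 and 6.77 RPKM in asynchronous cells, and 2.00 to 9.46 RPKM in input RNA of the windows, against 10.5 and 13.0 RPKM in asynchronous cells. NOG was at 0 in both asynchronous nascent libraries, which were the shallowest. Of the lists by function, 4 had a median difference above 0 in both numbers, against 0.02 in number 1 and 0.003 in number 2 over all members. They were feedback inhibitors of growth factor signalling (0.94 in number 1 and 0.30 in number 2), TGF-beta and BMP response genes (0.45 and 0.29), NF-kB and cytokine genes (0.34 and 0.26) and SR proteins and CLK kinases (0.13 and 1.15). Hypoxia genes (-0.49 and -0.37), circadian repressors (-0.10 and -0.25) and glycolysis genes (-0.41 and -0.03) had a median difference below 0 in both numbers. No gene of any of these lists was called.

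Among the 5 windows the moderated F-test of limma called 0 of 9138 genes (0%), with 9 at an unadjusted p under 0.05 and a lowest adjusted p of 1. Across genes, the ratio of a window pair numbered 1 correlated at -0.42 to 0.17 with that of a window pair numbered 2. This gap lies within each group and widens the spread that the test uses, so 0 calls do not show an unchanged ratio.

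Nuclear libraries, which had no part in choosing the members, gave the same ratio in isolated nuclei for 8492 members. The comparison of whole cells with nuclei called 0 genes (0%) higher and 0 (0%) lower in whole cells by at least 1, with 773 at an unadjusted p under 0.05 and a lowest adjusted p of 0.148. With the replicate number as a block, 6 genes were lower in whole cells and 0 higher. Across genes the mean ratios of whole cells and nuclei correlated at 0.62. The nuclear ratios split by number too, with a median correlation of 0.33 among windows numbered 1, 0.71 among those numbered 2 and -0.05 between them.

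Genes low in whole cells were mostly low in nuclei, and the high end carried over less. Of the 70 low genes 51 were measured in nuclei, and 48 of them (94.1%) had a mean nuclear ratio below the median gene, against 49.6% of all 8492. Of the 719 genes that passed below in whole cells, 670 were measured in nuclei and 96.3% were below there. Of the 374 genes measured in nuclei that passed above in whole cells, 78.6% were above there, against 50.4% of all. RNU5E-1 was the 1 gene that passed in nuclei alone, at -4.67, with 0 to 9.13 RPKM in nuclear nascent RNA, against 12.8 to 401 RPKM in nuclear input RNA. RN7SL2 averaged -0.69, PAXX -0.54 and ARHGDIA -0.70 in nuclei. PAXX was above the median gene in 5 of 12 nuclear pairs, with means of 0.13 in number 1 and -1.21 in number 2. PPP1R3C and ARRDC3 averaged near the median gene in nuclei, at -0.06 and -0.17, as did MANCR at 0.03. The numbers differed here too. In nuclei these 3 genes had means of -0.25, -0.34 and -0.41 in number 1, and of 0.13, 0.01 and 0.46 in number 2.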

How the data were processed

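The members and gene lists were chosen with earlier results of these data known. Expression values are the RPKM that the authors deposited, in 1 table each for whole-cell nascent, whole-cell input, nuclear nascent and nuclear input RNA. Per the submitters' processing notes, STAR 2.5.3, featureCounts 1.6.1, edgeR, HOMER 4.10.3 and, for some samples, Bowtie2 2.3.4.3 were used on hg38, with no role or order stated. The sources used here do not give the annotation or the strand use in counting, so reads of overlapping genes may not be separable. Gene lengths in base pairs were taken from other tables the authors deposited. They lay within 10% of the RefSeq gene span for 79.6% of 8329 members. Multiplying RPKM by length gave whole multiples of 1 step for at least 99.97% of the values checked (up to 200 reads, tolerance 0.05), which gave the depths.

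Ratios were formed per pair with a pseudocount of 0.25 and centred on the median member, so fold changes are on the log2(RPKM + 0.25) scale and understate those of low genes. They were fitted with limma 3.58.1 in R 4.3.3 on 6 groups, with eBayes and a trend on the mean level, and Benjamini-Hochberg adjustment over all members. The test was tried on simulated data. Named genes were the 10 highest and 10 lowest with adjusted p under 0.05, a ratio at least 1 from 0, the same side in 12 of 12 pairs and at least 5 RPKM in the higher table, without pseudogenes and clone names. Further named genes were the lncRNAs targeted in the series and the ends of each list. SOCS5, SOCS6, PHGDH, DDX58 and SESN1 were named because they passed, after their values were seen. Only 2 genes met the rule at the high end. Alternatives were the pseudocount, the filter, the centring, quantile normalization, crossed numbers, the replicate number as a block, and leaving out each pair. Chromatin and knockdown libraries were not used here.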

Additional observations from a re-analysis of the deposited data

How the results depend on the processing

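By limma, 7 genes were high and 70 low. The number of high genes was 3 with a pseudocount of 1, 1 with no filter, 25 with quantile normalization, 0 with crossed numbers, 51 at a difference of at least 1.5-fold, 1 at a log2 difference of 2 and 380 with no size rule. The number of low genes was 42, 8, 40, 0, 431, 10 and 719 in the same order. Chosen after seeing the data, pairs numbered 1 alone gave 14 high and 52 low genes, pairs numbered 2 alone 405 and 643, and the 10 window pairs without the asynchronous ones 0 and 0. Of the low genes in number 1, 18 were low in number 2 too (34.6% of the first list and 2.8% of the second), and of the high genes 1 was. Leaving out 1 pair gave 0 to 24 high and 0 to 180 low genes, 0 genes in both comparisons among groups and 0 to 1 in that with nuclei. Windows minus asynchronous gave 1 gene at a pseudocount of 0.1, and, with 1 asynchronous pair taken to vary like the windows, 3505 genes in number 1 alone and 2383 in number 2 alone.

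The numbers did not pair nascent with input libraries in every group: deviations of same-numbered libraries correlated at -0.05 in asynchronous cells and 0.15 to 0.67 in the windows. With the replicate number as a block, 10 genes were high and 102 low, 0 differed between windows and asynchronous cells or among windows, and 6 differed between whole cells and nuclei. With no replicate block, that is unpaired nascent and input groups, 0 were high and 7 low. In 1318 values of the 55 named genes that passed, under all alternatives, 0 changed sign and 759 lost the threshold. The cause of these losses was not tested. The 55 genes were taken because they passed in these same pairs, so the unchanged sign is no separate support. Genes at 0 in some nascent libraries are limited by depth.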

Other observations

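Stress and signalling lists held members at both ends, mostly in shares near those of all members, of which 4.16% passed above and 7.87% below the median gene by limma. Of 14 cytosolic heat shock genes 2 (14.3%) passed above, the chaperone partner CHORDC1 (mean ratio 0.49, with 0.33 in number 1 and 0.64 in number 2) and the transcription factor HSF2 (0.47, with 0.36 and 0.58). The small heat shock protein HSPB1 was the 1 (7.14%) below (-0.90, with -0.38 and -1.42). Of 19 interferon-stimulated genes 1 passed each way (5.26%), the RNA sensor DDX58 above (0.31, with 0.21 and 0.41) and the ubiquitin-like ISG15 below (-0.77, with -0.66 and -0.89). Of 23 p53 targets 1 passed each way (4.35%), SESN1, a regulator of nutrient signalling, above (0.39, with 0.28 and 0.51) and PHLDA3, an inhibitor of AKT, below (-0.92, with -0.55 and -1.29). Of 18 chaperone genes of the endoplasmic reticulum 2 (11.1%) passed, both below: SDF2L1 (-0.79, with -0.64 and -0.95) and CRELD2 (-0.59, with -0.49 and -0.69). No member of the hypoxia, snoRNA host, circadian or TGF-beta and BMP lists passed in either direction.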
